A study of Mus musculus with 6 samples.

Results

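The genes of 10 serotonin receptors, Htr1a, Htr1b, Htr1d, Htr2a, Htr2c, Htr3a, Htr4, Htr5a, Htr6 and Htr7, were followed in neurons of the preBötzinger complex (preBötC), the brainstem site where the inspiratory rhythm of breathing originates. They were taken by name from the 49568 gene names for which RPKM, the number of reads on a gene scaled to its exon length and to all reads on genes of the sample, was deposited. There were 3 samples of Dbx1 and 3 of non-Dbx1 neurons, and every sample pooled 15 neurons drawn singly from the slice of a separate mouse at postnatal day 2. All mice carried Dbx1CreERT2 and Rosa26tdTomato, and tamoxifen had been given to their mothers. Dbx1 samples held neurons with tdTomato fluorescence, which descend from progenitors that expressed Cre from the Dbx1 locus. Non-Dbx1 samples held neuronal somata of the same site without tdTomato, so that group is set by the lack of a label and not by a marker of its own, and a Dbx1-derived neuron that had escaped recombination would be counted in it.

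Serotonin is released in the preBötC by neurons of the raphé nuclei and acts through families of receptors with opposed signalling. Receptors of types 1 and 5 couple to Gi/o proteins, lower cyclic AMP and open inwardly rectifying potassium channels, which quiets a neuron. Type 2 receptors couple to Gq and phospholipase C, the receptors encoded by Htr4, Htr6 and Htr7 couple to Gs and raise cyclic AMP, and the type 3 receptor is itself a cation channel.

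Reads on genes numbered 6464675 to 9432958 per sample, found from the smallest steps of the RPKM values. Where 3 values are given for a group they are those of replicates 1, 2 and 3 in turn. A sum of 15 neurons cannot tell fewer cells that express a receptor from less RNA per cell. Several samples stood apart from the rest. Non-Dbx1 replicate 1 had an oligodendrocyte transcript (Mbp 155 RPKM, against at most 9.10 elsewhere). Non-Dbx1 replicate 2 had transcripts of catecholamine neurons (Dbh 339 and Th 114 RPKM, against at most 11.8 and 3.86). Non-Dbx1 replicate 3 had motor neuron transcripts (Slc18a3 37.0 and Isl1 13.3 RPKM, with Isl1 at 0 in the other 5 samples). Chat and Prph of the same marker list were also highest there. Slc5a7 was not (7.91 RPKM, against 10.9 in non-Dbx1 replicate 2), and Mnx1 was at 0 in that sample. Results are therefore given with each sample left out where that changes them. Of the defining genes of serotonin neurons, Slc6a4, the serotonin transporter, and the transcription factor Fev were at 0 in all 6 samples, and Tph2, the enzyme of serotonin synthesis in neurons, was above 0 in Dbx1 replicate 1 alone, at 3.36 RPKM.

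Receptor transcripts were of low to middling abundance and uneven between samples. Of the 10 genes, 5 (Htr1a, Htr1b, Htr2c, Htr4 and Htr7) had RPKM above 0 in all 6 samples, and 4 of these had at least 3 reads in every sample, Htr4 having 2 reads in Dbx1 replicate 1. Htr2c was the only one at 1 RPKM or more in all 6 samples. Each sample had 7 to 9 of the 10 above 0. Mean RPKM over the 6 samples ran from 7.08 for Htr1a to 0.128 for Htr3a. A value of 0 has a limit of 3 reads. For the receptors with a 0 (Htr1d, Htr2a, Htr3a, Htr5a and Htr6) that is between 0.0552 and 0.156 RPKM over the depths of the 6 samples. Such limits cover counting error only, since amplified reads are not independent molecules.

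**Figure D1:**
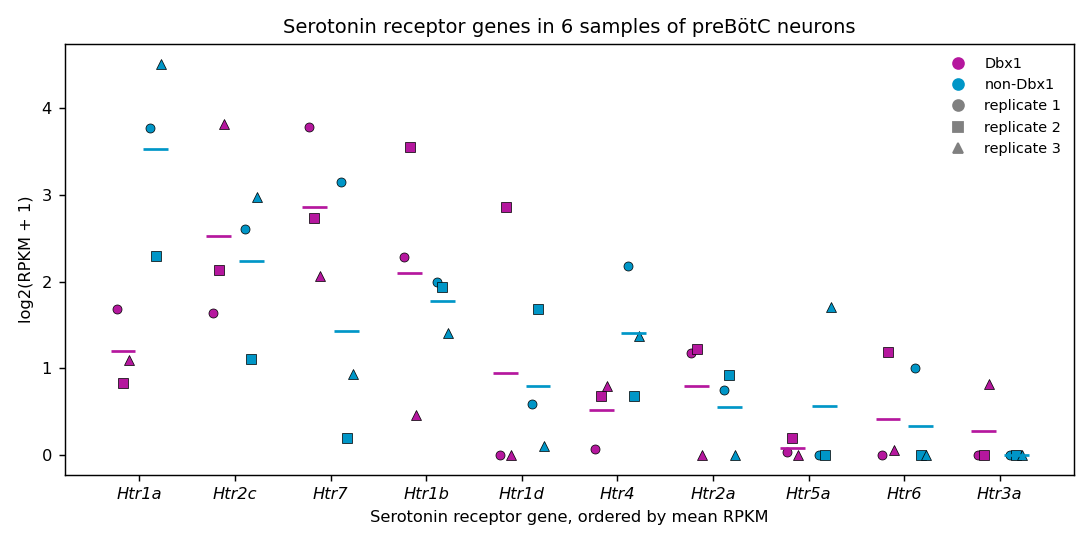
Levels of 10 serotonin receptor genes in single samples, as log2(RPKM + 1) on the vertical axis, with genes ordered by mean RPKM on the horizontal axis. Magenta symbols are Dbx1 samples, blue symbols are non-Dbx1 samples, symbol shape gives the replicate and bars are group means (n = 3). Htr1a is the gene whose blue symbols all lie above its magenta ones, and for most other genes a single sample lies far from the rest of its group.

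Htr1a encodes the 5-HT1A receptor, a Gi/o-coupled receptor found both on serotonin neurons and on their targets. Its RPKM was 2.21, 0.778 and 1.13 among Dbx1 replicates and 12.6, 3.92 and 21.8 among non-Dbx1 replicates. All 3 non-Dbx1 samples lay above all 3 Dbx1 samples, and the read numbers behind these values, 26 to 78 against 149 to 915, did not overlap either. The means were 1.37 ± 0.745 and 12.8 ± 8.96 RPKM (SD, n = 3), a ratio of 9.32. The L2FC, the difference of group means of log2(RPKM + 1) with positive values for higher Dbx1 samples, was −2.32 (standard error 0.65) and its 95% interval ran from −3.82 to −0.83. In limma the unadjusted p was 0.0069, and after Benjamini-Hochberg adjustment over 17614 genes the FDR was 0.801, far above the threshold of 0.1. The exact two-sided permutation test gave p = 0.10, the smallest that 3 samples against 3 allow. With single samples left out the L2FC ran from −2.94 to −1.83. It was −1.83 without non-Dbx1 replicate 3, the sample with the most Htr1a and with motor neuron transcripts. Without non-Dbx1 replicate 1 it was −2.21, and without non-Dbx1 replicate 2 it was −2.94. Other transcripts were apart between the groups as well: the summed RPKM of 5 erythroid markers was 90.3 to 507 in Dbx1 and 733 to 14060 in non-Dbx1 samples, that of 5 vascular markers 0.0503 to 0.650 and 3.05 to 65.4, and that of 4 catecholamine neuron markers 0.134 to 2.70 and 14.9 to 497, with Dbh and Slc6a2 at 0 in every Dbx1 sample. Single members did not all follow these sums. The vascular marker Cldn5 measured 63.7 RPKM in non-Dbx1 replicate 2, and both Cldn5 and Flt1 were at 0 in non-Dbx1 replicate 3. Pecam1, of the same list, had its highest value, 0.507 RPKM, in Dbx1 replicate 2. The erythroid marker Alas2 overlapped between the groups. Dbh and Slc6a2 were at 0 in non-Dbx1 replicate 3 too. The part of all these transcripts in the Htr1a difference was not tested. Summed markers of neurons (994 to 1708 and 993 to 1380), astrocytes (34.7 to 59.6 and 52.4 to 81.2), microglia (0.202 to 10.4 and 0.756 to 13.3) and motor neurons (5.56 to 14.1 and 3.14 to 157) overlapped. Htr1a is a gene of a single exon (ENSMUSG00000021721, chr13:105443639-105448122, plus strand, GRCm38).

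Htr1b (ENSMUSG00000049511, chr9:81628291-81633828, minus strand) encodes a Gi/o-coupled receptor of nerve terminals, where it limits transmitter release. It measured 3.88, 10.8 and 0.383 RPKM among Dbx1 replicates and 2.99, 2.83 and 1.66 among non-Dbx1 replicates. The Dbx1 samples held both the highest and the lowest value, so the groups overlapped (L2FC 0.32, standard error 0.80), and without Dbx1 replicate 2 the L2FC was −0.40. Htr1d (ENSMUSG00000070687, chr4:136423524-136444398, plus strand), a close relative of Htr1b, measured 0, 6.25 and 0 RPKM among Dbx1 replicates and 0.510, 2.21 and 0.0736 among non-Dbx1 replicates. Among the Dbx1 samples its transcript was found in replicate 2 alone, with 271 reads, the same sample that led for Htr1b. Its L2FC of 0.16 turned to −0.79 without that sample. Htr5a (ENSMUSG00000039106, chr5:27842149-27855088, plus strand), also coupled to Gi/o, measured 0.0234, 0.148 and 0 RPKM among Dbx1 replicates and 0, 0 and 2.27 among non-Dbx1 replicates. Non-Dbx1 replicate 3 held 115 reads and no other sample more than 6, so the L2FC of −0.49 (standard error 0.44) rested on that sample.

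Htr2c (ENSMUSG00000041380, chrX:146962513-147197277, plus strand) encodes the Gq-coupled 5-HT2C receptor, whose transcript is edited by the adenosine deaminases Adar and Adarb1. It measured 2.11, 3.39 and 13.1 RPKM among Dbx1 replicates and 5.11, 1.16 and 6.85 among non-Dbx1 replicates. It was present in every sample with 181 to 1659 reads, the groups overlapped, and the L2FC of 0.30 (standard error 0.75) turned to −0.35 when Dbx1 replicate 3 was left out and to −0.26 when non-Dbx1 replicate 2 was. Htr2a (ENSMUSG00000034997, chr14:74640840-74709494, plus strand), the other Gq-coupled member, measured 1.27, 1.34 and 0 RPKM among Dbx1 replicates and 0.677, 0.905 and 0 among non-Dbx1 replicates. It was at 0 in replicate 3 of both groups and held 13 to 30 reads in the other 4 samples, with an L2FC of 0.24 (standard error 0.45) that became −0.034 without non-Dbx1 replicate 3.

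Htr7 encodes the Gs-coupled 5-HT7 receptor (ENSMUSG00000024798, chr19:35958734-36057507, minus strand). It measured 12.8, 5.63 and 3.20 RPKM among Dbx1 replicates and 7.86, 0.145 and 0.913 among non-Dbx1 replicates. Non-Dbx1 replicates 2 and 3 were the lowest of the 6, while non-Dbx1 replicate 1 lay above Dbx1 replicates 2 and 3. Group means were 7.20 ± 4.98 and 2.97 ± 4.25 RPKM (SD, n = 3), with a ratio of 2.42. The L2FC of 1.43 (standard error 0.85) had a 95% interval from −0.50 to 3.37, a limma p of 0.127 and a Benjamini-Hochberg FDR of 0.936. Without non-Dbx1 replicate 1, the sample with the most Mbp, the L2FC was 2.30 with a limma p of 0.013 and still no call after adjustment. Without non-Dbx1 replicate 2, the sample with catecholamine transcripts, it was 0.82 with a limma p of 0.354, and without Dbx1 replicate 1 it was 0.97 with a limma p of 0.340. The part of oligodendrocyte RNA in the Htr7 value was not tested.

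Htr4 (ENSMUSG00000026322, chromosome 18, plus strand), also Gs-coupled, measured 0.0540, 0.599 and 0.741 RPKM among Dbx1 replicates and 3.52, 0.602 and 1.59 among non-Dbx1 replicates. The ranges overlapped narrowly, because non-Dbx1 replicate 2 lay between Dbx1 replicates 2 and 3. The L2FC of −0.89 (standard error 0.51) had a limma p of 0.117 and a Benjamini-Hochberg FDR of 0.924. Without non-Dbx1 replicate 2 it was −1.26 with an unadjusted limma p of 0.046, and without non-Dbx1 replicate 1 it was −0.51 with a p of 0.261. Htr6 (ENSMUSG00000028747, chr4:139061108-139075570, minus strand), the remaining Gs-coupled member, measured 0, 1.27 and 0.0406 RPKM among Dbx1 replicates and 1.004, 0 and 0 among non-Dbx1 replicates. It was found with more than a single read in only 1 sample of each group, 34 reads in Dbx1 replicate 2 and 23 in non-Dbx1 replicate 1. Htr3a (ENSMUSG00000032269, chr9:48899213-48911099, minus strand), a subunit of the cation channel, had 16 reads in Dbx1 replicate 3, at 0.771 RPKM, and none in the other 5 samples.

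No receptor passed the adjusted threshold between the groups. Htr3a was above 0 in too few samples for the test, which needed 3, and the other 9 receptors entered it. None of these 9 had an FDR under 0.1 in limma, beside 1 of 17614 genes (0.00568%), and 1 of the 9, Htr1a, had an unadjusted p under 0.05, beside 5.2% of all genes tested. Htr1a was higher in the non-Dbx1 samples, as were 2.48% of genes at that p, and no receptor was among the 2.73% that were higher in the Dbx1 samples. Voom on the recovered reads called no receptor either, and there 2 of 7 receptors tested, Htr1a and Htr7, had an unadjusted p under 0.05, beside 5.27% of genes. The groups did not overlap in 1 of the 9, again Htr1a, and in 10.6% of all genes tested, 5.24% with the non-Dbx1 samples above and 5.35% with the Dbx1 samples above. The L2FC was above 0 for 6 receptors and below 0 for 3, with a median of 0.16 beside 0.0089 over all genes tested. The intervals were wide, and for Htr1b, Htr1d, Htr2c and Htr7 a difference of 2 on the log2 scale in favour of the Dbx1 samples lay within them. The spread of a receptor within its group was large, with a median residual SD of 0.854 on the log2(RPKM + 1) scale beside 0.659 over the 11459 tested genes with mean RPKM between 0.3 and 10.

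**Figure D2:**
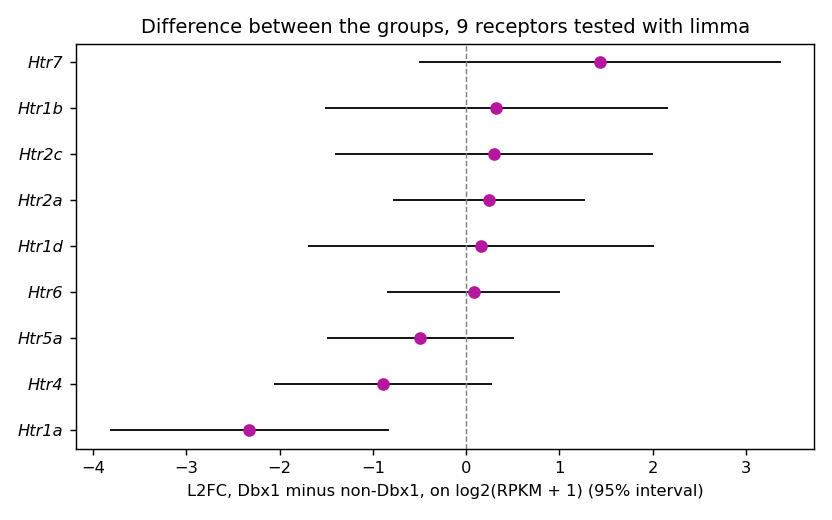
L2FC of the 9 tested serotonin receptor genes on the horizontal axis (Dbx1 minus non-Dbx1 samples, difference of means of log2(RPKM + 1), n = 3 per group), with 95% intervals from limma as lines. The interval of Htr1a, from −3.82 to −0.83, is the only one that leaves out 0, before any adjustment for the 17614 genes tested.

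The receptor with the most RPKM differed from sample to sample in the Dbx1 group and was shared in the non-Dbx1 group. Htr7 led Dbx1 replicate 1 with 57.2% of the summed RPKM of the 10 genes, Htr1b led Dbx1 replicate 2 with 35.7%, and Htr2c led Dbx1 replicate 3 with 67.7%. Htr1a led all 3 non-Dbx1 samples, with 36.8%, 33.3% and 62.0%. The lead within a sample depends on how gene length is counted. The length recovered from the deposited RPKM was 12887 bases for Htr7, against 3399 bases of merged exon and 9704 bases of all distinct exons in GENCODE vM21, while Htr1a, with its single exon, had 4441 against 4484 bases. For 5 of the 10 receptors (Htr1b, Htr1d, Htr3a, Htr5a and Htr6) the recovered length equalled the sum of all distinct exons, overlapping ones included. Rescaled to merged exons, Htr7 led Dbx1 replicates 1 and 2 and non-Dbx1 replicate 1, Htr2c led Dbx1 replicate 3, Htr1d narrowly led non-Dbx1 replicate 2 (3.98 against 3.88 RPKM for Htr1a), and Htr1a led non-Dbx1 replicate 3 alone. The summed RPKM of the 10 genes was 22.3, 30.2 and 19.4 among Dbx1 replicates and 34.3, 11.8 and 35.2 among non-Dbx1 replicates, so the totals overlapped.

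**Figure D3:**
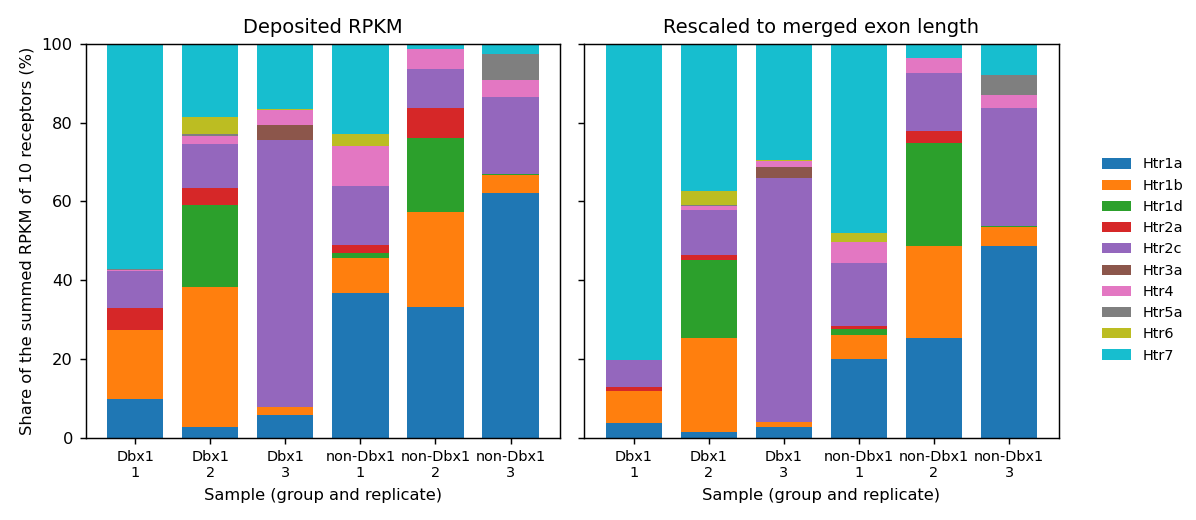
Share of each gene in the summed RPKM of 10 serotonin receptor genes (vertical axis, percent) in each of the 6 samples, on the deposited scale at left and after rescaling to merged exon length at right. Htr1a takes 33.3% to 62.0% of the non-Dbx1 samples at left, and the Htr7 share grows in every sample at right because its deposited length exceeds its merged length the most.

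Grouped by coupling, the Gi/o receptors held 27.4%, 59.5% and 7.82% of the receptor RPKM among Dbx1 replicates and 47.0%, 76.1% and 73.4% among non-Dbx1 replicates. The Gs receptors held 57.5%, 24.9% and 20.5% among Dbx1 replicates and 36.1%, 6.35% and 7.12% among non-Dbx1 replicates. Both shares overlapped between the groups, at Dbx1 replicate 2 for Gi/o and at non-Dbx1 replicate 1 for Gs. On merged exon length the Gi/o shares were 11.8%, 45.3% and 3.91% against 27.7%, 74.7% and 58.8%, and the Gs shares 80.3%, 41.8% and 31.3% against 55.8%, 7.32% and 11.2%. The overlaps stayed at the same samples, and Gs in place of Gi/o then held the most in non-Dbx1 replicate 1. The ratio of Htr1a to Htr7, a pair chosen after their values were seen and so given with no test, was 0.173, 0.138 and 0.354 among Dbx1 replicates and 1.60, 27.0 and 23.9 among non-Dbx1 replicates. Within a sample such a ratio does not depend on depth. On merged exon length it was 0.0361 to 0.0924 among Dbx1 replicates and 0.419, 7.06 and 6.25 among non-Dbx1 replicates. The rescaling multiplies the ratio by the same factor in every sample, so it could not change whether the groups overlap. It did change which of the 2 genes was higher in non-Dbx1 replicate 1.

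**Figure D4:**
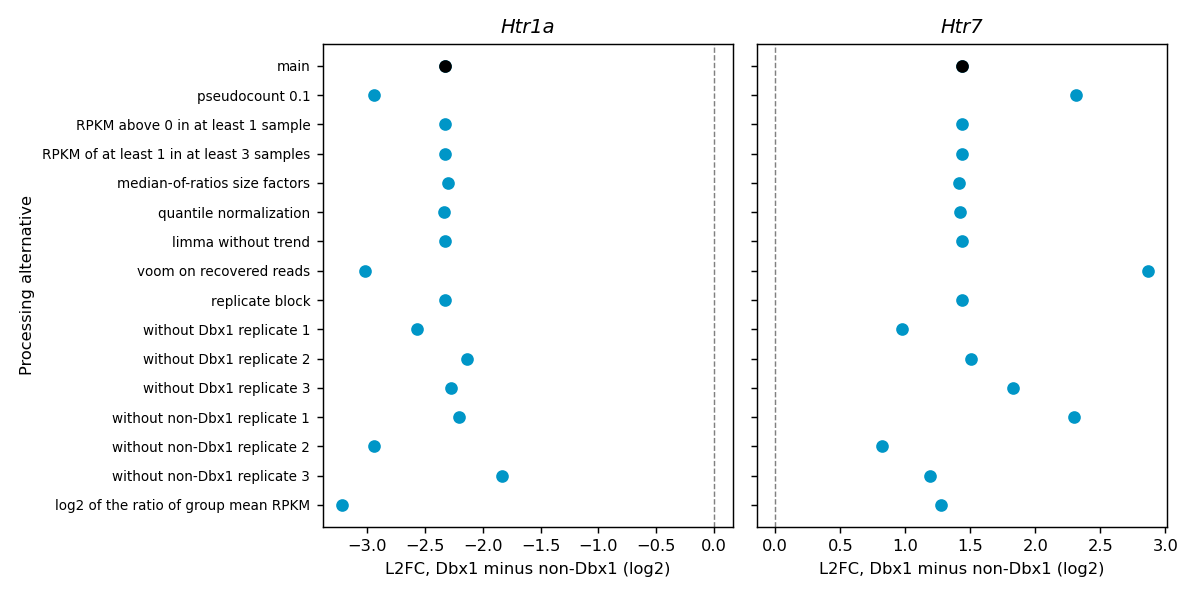
L2FC of Htr1a (left) and Htr7 (right) on the horizontal axes, Dbx1 minus non-Dbx1 on the log2 scale, under each way of processing on the vertical axis, with the value reported in the text in black. Htr1a stays below 0, between −3.22 and −1.83, and Htr7 stays above 0, between 0.82 and 2.86.

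By mean RPKM over the 6 samples the order was Htr1a (7.08), Htr2c (5.29), Htr7 (5.09), Htr1b (3.75), Htr1d (1.51), Htr4 (1.18), Htr2a (0.699), Htr5a (0.407), Htr6 (0.386) and Htr3a (0.128). Most neighbours in this order did not differ beyond the spread over samples. Htr1b lay above Htr1d in 6 of 6 samples (exact sign-change permutation test, p = 0.031, the smallest that 6 samples allow), which did not pass Benjamini-Hochberg adjustment over the 9 neighbouring pairs (p = 0.281). The other 8 pairs had exact permutation p values of 0.438 to 0.938 before adjustment, the lowest for Htr2a against Htr5a. Among Dbx1 replicates alone it began with Htr7 (7.20), Htr2c (6.21), Htr1b (5.01), Htr1d (2.08) and Htr1a (1.37), and among non-Dbx1 replicates alone with Htr1a (12.8), Htr2c (4.38), Htr7 (2.97) and Htr1b (2.49), but with 3 samples an exact sign-change permutation test cannot go below p = 0.25. Rescaled to merged exons the order began with Htr7 (19.3), Htr2c (10.3), Htr1a (7.01) and Htr1b (4.76). That rescaling is approximate, since the deposited lengths of Htr1a, Htr2a, Htr2c, Htr4 and Htr7 differ from the exon sums in GENCODE vM21, by the largest ratio for Htr2a with 2971 against 5606 bases.

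Of the 4 further serotonin receptor genes, Htr5b was the most abundant. It measured 3.38, 0 and 1.04 RPKM among Dbx1 replicates and 10.9, 0.181 and 3.78 among non-Dbx1 replicates (L2FC −0.97, standard error 0.94), and was thus low in replicate 2 of both groups. Htr1f reached 1.54 RPKM in non-Dbx1 replicate 1 and at most 0.211 elsewhere, Htr3b had a single read in all, and Htr2b was at 0 in every sample.

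Genes that act with these receptors showed no call either. In 9 lists of 74 genes (further receptors, serotonin neuron genes, breakdown and uptake, G protein alpha subunits, potassium channels gated by G proteins, adenylyl cyclases, cyclic AMP effectors, the phospholipase C branch and receptor regulators), 66 were tested and 0 had an FDR under 0.1. An unadjusted limma p under 0.05 was found for 3 of the 66 (4.55%, beside 5.2% of all genes tested), 2 higher in Dbx1 and 1 higher in non-Dbx1 samples, and the median L2FC was 0.013. The groups did not overlap for 2 of the 66 with the Dbx1 samples above, Rgs17 and Rapgef3, beside 5.35% of all genes tested. With the non-Dbx1 samples above it was 4 of the 66, Grk3, Gnaq, Adcy5 and Adcy9, beside 5.24%. Grk3, a kinase that desensitises G protein-coupled receptors, measured 1.84, 4.54 and 3.84 RPKM among Dbx1 replicates and 11.7, 13.5 and 6.87 among non-Dbx1 replicates. All its non-Dbx1 samples lay above all Dbx1 samples, with an L2FC of −1.42 (standard error 0.47, limma Benjamini-Hochberg FDR = 0.870). Rgs17, which speeds the turning off of Gi/o proteins, measured 18.7, 17.8 and 14.7 RPKM among Dbx1 replicates and 10.1, 8.62 and 12.2 among non-Dbx1 replicates, without overlap (L2FC 0.68, FDR = 0.912 in limma). Rapgef3, a guanine nucleotide exchange factor that cyclic AMP activates, measured 1.52, 0.0483 and 1.51 RPKM among Dbx1 replicates and 0, 0.0071 and 0.0064 among non-Dbx1 replicates (L2FC 0.90, FDR = 0.912 in limma).

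The most abundant member of each list was present in both groups at overlapping levels. Gnai1, a Gi alpha subunit, measured 56.9 to 112 RPKM among Dbx1 replicates and 63.5 to 80.5 among non-Dbx1 replicates, and Adcy2, an adenylyl cyclase, 22.2 to 39.5 and 34.1 to 53.8. Prkar1a, a regulatory subunit of protein kinase A, measured 104 to 148 and 69.4 to 171 RPKM, Prkcb, a protein kinase C, 21.3 to 41.4 and 20.7 to 30.4, and Rgs4, a regulator of Gi and Gq signalling, 34.5 to 36.2 and 25.1 to 81.3. Slc29a4, a plasma membrane transporter that takes up serotonin with low affinity, measured 36.9 to 52.8 and 34.9 to 64.5 RPKM. The subunits of the potassium channels that Gi/o-coupled receptors open were scarce: Kcnj9 measured 0.931 to 2.94 RPKM among Dbx1 replicates and 0 to 2.05 among non-Dbx1 replicates, Kcnj3 at most 2.46 and Kcnj6 at most 0.904 in any sample, and Kcnj5 was at 0 in all 6. Slc18a2, which loads monoamines into vesicles, was the most abundant serotonin neuron gene, with 171 RPKM in non-Dbx1 replicate 2 and at most 9.41 elsewhere. That replicate is the sample with transcripts of catecholamine neurons, which use it too.

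Genes of transmitter phenotype were set beside Htr1a. Slc17a6, the vesicular glutamate transporter of excitatory brainstem neurons, measured 47.2, 128 and 54.9 RPKM among Dbx1 replicates and 31.9, 35.1 and 13.6 among non-Dbx1 replicates, without overlap. Slc6a5, the glycine transporter of glycinergic neurons, measured 24.2, 13.1 and 64.2 RPKM among Dbx1 replicates and 53.6, 17.5 and 40.9 among non-Dbx1 replicates, which overlapped. The sample with the most Slc6a5, Dbx1 replicate 3, had 1.13 RPKM of Htr1a, and the sample with the most Htr1a, non-Dbx1 replicate 3, had 40.9 RPKM of Slc6a5. Slc32a1, Gad1 and Gad2, genes of inhibitory transmission, spanned 6.70 to 15.5, 2.59 to 20.3 and 23.3 to 55.6 RPKM among Dbx1 replicates and 10.3 to 22.4, 11.7 to 23.0 and 50.9 to 60.0 among non-Dbx1 replicates. None of these 5 genes had an FDR under 0.1, the lowest being 0.870 for Slc17a6.

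Among 10785 other tested genes with mean RPKM of at least 1, those whose log2(RPKM + 1) followed Htr1a most closely over the 6 samples were Tekt5, a tektin of cilia and flagella, Mfsd14a, a membrane transporter, and Dlgap3, a scaffold protein of excitatory synapses. Pearson's r was 0.99 for each, and Spearman's rho was at its maximum of 1 for Tekt5 and Dlgap3 and 0.943 for Mfsd14a. Tekt5 measured 7.96, 5.66 and 6.69 RPKM among Dbx1 replicates and 15.9, 8.50 and 17.8 among non-Dbx1 replicates, a narrower span than that of Htr1a. The points are the same 6 libraries, the group difference enters each r, and 63 of the 10785 genes had an r above 0.9. Of the other receptors Htr4 was the most like Htr1a (r = 0.718, rho = 0.657) and Htr3a and Htr2a the least (r = −0.42 and −0.41).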

How the data were processed

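Full-length cDNA of each sample was sequenced after Nextera library preparation. The authors aligned the reads to mm10 with TopHat2, used SAMtools, counted reads on genes with HTSeq and deposited 1 RPKM value per gene name and sample, with no scaling between samples. The Ensembl release behind the exon lengths is not given in the sources used here. The deposited RPKM values are whole multiples of the value of 1 read, so reads and lengths were recovered for 27065 of 27067 genes above 0 (tolerance 0.0001). These lengths equalled the sum of all distinct exons, overlapping ones included, for 12173 of 25890 genes (47.0%). Among 15618 genes with overlapping exons, 4192 fitted that sum or a whole divisor of it and 25 the merged exons. Positions came from GENCODE vM21 (GRCm38), in which all 10 receptors were found by name.

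The authors tested counts with DESeq2. Here log2(RPKM + 1) was tested with limma 3.58.1 (trend) in R 4.3.3, two-sided, over 17614 genes above 0 in at least 3 samples, with Benjamini-Hochberg adjustment and an FDR threshold of 0.1. A pseudocount of 1 understates the change of low genes. Limma was tested on simulated data. Other values came from Python 3.11.15 with numpy 2.4.6, pandas 2.3.3, scipy 1.17.1 and matplotlib 3.10.9. The receptors and lists were chosen with earlier results of these data known. From these same samples the study, with DESeq2 on counts, called Htr1a higher in non-Dbx1 neurons and did not call Htr4. The limma fit used here called neither. Named genes are the receptors, the most abundant gene of each list, list genes with an FDR under 0.1 or with groups apart and p under 0.05, and the 3 genes most like Htr1a. Alternatives were a pseudocount of 0.1, 2 other filters, size factors, quantile normalization, no trend, voom on genes with at least 10 recovered reads in at least 3 samples, the replicate number as a block, each sample left out, the ratio of means, and merged exon length.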

Additional observations from a re-analysis of the deposited data

How the results depend on the processing

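In 14 fits none of the receptors had an FDR under 0.1, the lowest being 0.586. Of 9 receptors, 4 (Htr1a, Htr4, Htr5a and Htr7) kept the sign of their L2FC in every alternative that tested them. Htr5a was tested in only 9 of the 14 fits. The fit without non-Dbx1 replicate 3, the sample on which its L2FC rested, was not among them, so its kept sign says little. The L2FC of Htr1d was −0.65 with a pseudocount of 0.1 and −2.20 with voom. With each sample left out in turn, the L2FC ran from −0.40 to 1.14 for Htr1b, −0.79 to 0.64 for Htr1d, −0.034 to 0.65 for Htr2a, −0.35 to 0.74 for Htr2c and −0.087 to 0.29 for Htr6, and the number of receptors whose groups did not overlap from 1 to 4, being 4 (Htr1a, Htr1b, Htr2a and Htr4) without Dbx1 replicate 3 and 2 without Dbx1 replicate 2 or non-Dbx1 replicate 1 or 2. In these splits of 2 samples against 3, 17.6% to 21.8% of all genes tested did not overlap. Of the neighbouring pairs in the order of levels, 1 had an exact permutation p under 0.05 before adjustment on the deposited scale and 0 on merged exon length. At 1 RPKM or more, 1 receptor was found in all 6 samples. Several values of the low receptors rest on few reads, and the part of depth in them was not tested. The cause of these changes was not tested.

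The replicate numbers gave no pairing: deviations of same-numbered samples correlated at −0.11, 0.025 and −0.052, against a mean of 0.022 between different numbers. With the replicate block the L2FC of Htr1a was −2.32, with a limma p of 0.0079 and a Benjamini-Hochberg FDR of 0.980, and 0 receptors were called.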

Other observations

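Receptors for other amines and for acetylcholine, 22 genes of which 14 were tested, held 0 genes with an FDR under 0.1 in limma and 2 with an unadjusted p under 0.05, both higher in the Dbx1 samples, beside 5.2% of all genes tested and 2.73% that were higher in the Dbx1 samples. Chrm2, the muscarinic M2 receptor, which couples to Gi/o like the 5-HT1A receptor, measured 10.7, 15.3 and 10.7 RPKM in Dbx1 replicates 1 to 3 and 0.298, 6.76 and 5.07 in the non-Dbx1 replicates. All Dbx1 samples lay above all non-Dbx1 samples (L2FC 1.73, standard error 0.68, limma Benjamini-Hochberg FDR = 0.912), the opposite direction to Htr1a. The Dbx1 samples lay above without overlap in 2 of the 14 receptors tested, beside 5.35% of all genes tested. Drd2, a dopamine receptor that also couples to Gi/o and was named after its values were seen, measured 7.26, 2.45 and 12.3 RPKM in the Dbx1 replicates and 0.121, 0.0459 and 4.62 in the non-Dbx1 replicates, with overlap. Adra2a, the most abundant of these receptors, measured 14.7, 0 and 11.8 RPKM in the Dbx1 replicates and 18.8, 19.1 and 14.6 in the non-Dbx1 replicates. Its value of 0 in Dbx1 replicate 2 was that of the sample with the most Htr1b and Htr1d.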
